A study of Triticum aestivum with 6 samples.

Results

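Strigolactones are hormones made from carotenoids, and the 16 bread wheat genes described here carry the names of the enzymes that begin their synthesis and of the receptor that perceives them. The genes were chosen by the protein name of their best UniProt match, which had to be beta-carotene isomerase D27, carotenoid cleavage dioxygenase 7 or 8 (CCD7, CCD8) or strigolactone esterase D14. Of 83219 genes in the deposited table, 22 had such a name. A minimum of 15 read counts summed over the 6 libraries left 16 of them, with 2 named D27, 3 named CCD7, 5 named CCD8 and 6 named D14. The gene just inside the minimum was the D14-like TraesCS1D02G120200 with 15.4 counts, and the gene just outside was the D27-like TraesCS7A02G418900 with 8. The names stand for similarity to a protein of rice or Arabidopsis, not for curated wheat symbols.

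In plants, D27 isomerises beta-carotene, CCD7 cleaves the product, and CCD8 turns the cleaved molecule into carlactone. Cytochrome P450 enzymes of the CYP711A family, called MAX1 in Arabidopsis, then oxidise carlactone to active hormones. D14 is a hydrolase that binds and cleaves strigolactone, and together with the F-box protein MAX2 (D3 in rice) it sends repressors of the D53 type to degradation. Roots exude strigolactones, which attract arbuscular mycorrhizal fungi and let seeds of parasitic weeds germinate, and inside the plant the hormones restrain shoot branching. Low phosphate, and in some species such as sorghum also low nitrogen, is known to raise their synthesis.

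The samples were roots of wild-type wheat JW1 in 2 groups of 3 libraries. In the 2N group, seedlings were exposed for 3 hours to medium with 2 mM of a potassium nitrate salt, which the labels spell KNO, and in the 0N group to medium with 2 mM KCl. Seedlings of both groups had germinated for 3 days, had lost their endosperm, had 3 days on 2 mM nitrate and had then spent 2 days on nitrogen-free medium, all with phosphate in the basal recipe. The 2N and 0N media thus differed in chloride as well as nitrate, and effects of the 2 ions cannot be told apart. The growth protocol lists calcium nitrate or calcium chloride as alternatives without saying which medium held which. No label says whether replicates 1 to 3 were separate cultures or plants, so p-values measure the spread between these libraries, which may be technical.

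Summed counts per library ranged from 17234970 to 17645686 for 2N and from 16208512 to 16426366 for 0N. Counts per gene were scaled to CPM, the count relative to each library's TMM-scaled total, and 3 counts corresponded to 0.175 to 0.181 CPM in every library. The tissue label reads root while a cell line label names leaf, and genes of both kinds of tissue were detected. All 7 Casparian strip membrane protein genes, markers of the root endodermis, had counts, and their summed TPM, the deposited length-scaled expression value, was 194 to 247 in 2N and 145 to 175 in 0N. Aquaporin NIP2-1, another root marker, summed to 169 to 227 TPM in 2N and 219 to 282 TPM in 0N, with overlap. Genes named ROOT HAIR DEFECTIVE summed to 73.37 to 84.35 TPM in 2N and 78.02 to 84.72 TPM in 0N, also overlapping. NRT2 nitrate transporter genes summed to 958 to 1607 TPM in 2N and 24.4 to 32.6 TPM in 0N. Of 69 genes for chlorophyll a-b binding proteins, markers of green tissue, 58 had counts, with summed TPM of 54.0 to 92.6 in 2N and 104 to 225 in 0N. Of 17 genes for the RuBisCO small chain, 11 had counts, with 29.7 to 69.6 TPM in 2N and 59.4 to 157 TPM in 0N. The sum of the chlorophyll-binding genes was lower in every 2N library, the RuBisCO ranges overlapped, and the part of green tissue in the results on the strigolactone genes was not tested. In whole roots, fewer cells of a type and less RNA per cell cannot be told apart.

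Most of the strigolactone genes did not pass the test between 2N and 0N, and those that did were scarce copies that were lower in 2N. Among the 13 genes with enough counts to be tested, 2 were lower in 2N and none was higher, at an adjusted p below 0.05 in edgeR's quasi-likelihood test, beside 7.93% lower and 7.57% higher among all 54313 tested genes. TraesCS1A02G119400, a D14-like receptor gene, fell 3.55-fold, and TraesCSU02G085100, a CCD8-like synthesis gene, fell 1.85-fold. At an unadjusted p below 0.05 only TraesCS4D02G258000 was higher, and DESeq2 and limma on TPM called no gene higher. The other 11 tested genes had overlapping groups. Another copy, the CCD8-like TraesCS3B02G088400, had 4 counts over the 2N libraries and 38 over the 0N libraries, too few to enter the test.

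Of all tested genes, 15.5% passed the same threshold in either direction. The groups did not overlap for 32.4% of all tested genes, with 2N below 0N for 16.2%, and 2 of the 13 tested strigolactone genes were in that last class. The median log2 fold change (2N over 0N) was -0.08 for the 13 genes, 7 of which had a negative value, and 0.00 for all tested genes. TraesCS1A02G119400 reached the minimum for testing through its 0N libraries alone, so its presence among the tested genes is tied to that difference. Scaling by library totals instead of the TMM factors moved the median of all genes by -0.09, and the split of all calls was then 2920 higher and 6208 lower, against 4109 and 4306 with TMM.

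**Figure D1:**
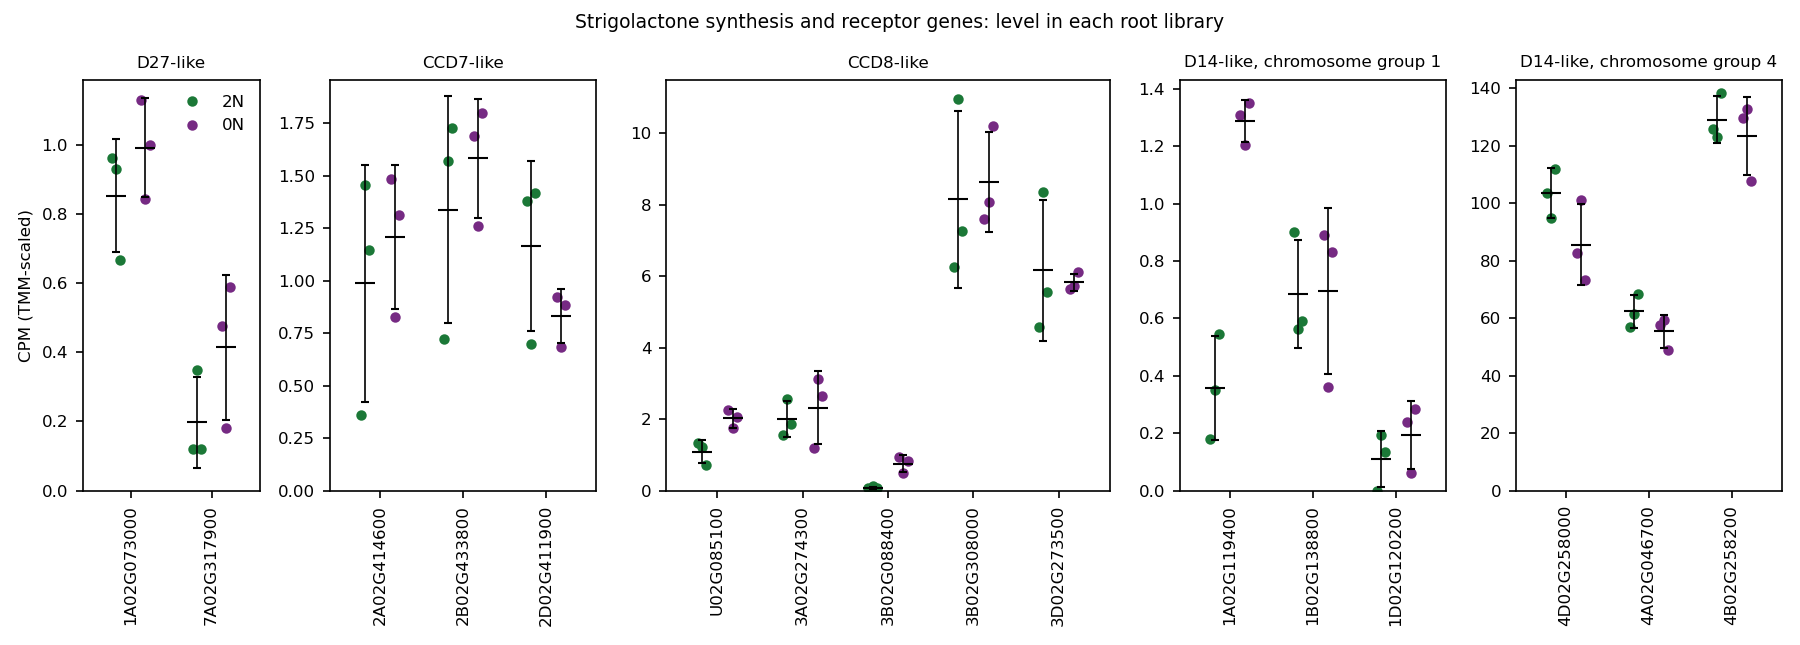
Level of each of the 16 strigolactone synthesis and receptor genes in each root library, in TMM-scaled CPM on axes that start at 0 and differ in range between panels; points are libraries (2N green, 0N purple), horizontal bars are means and error bars are SD (n = 3). The groups stand apart for TraesCS1A02G119400 (0.180 to 0.544 CPM in 2N, 1.21 to 1.35 CPM in 0N), TraesCSU02G085100 and TraesCS3B02G088400, and overlap for the others.

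The isomerase D27, which opens the pathway, was scarcely detected. TraesCS1A02G073000 was the more abundant D27-like gene, with 0.961, 0.931 and 0.665 CPM in the 2N libraries, against 1.13, 0.844 and 0.998 CPM in the 0N libraries. The 2 sets of values overlapped, and the log2 fold change was -0.21 ± 0.31 (SE; approximate 95% interval -0.87 to 0.44; adjusted p = 0.717). TraesCS7A02G317900 had 2, 6 and 2 counts in 2N and 8, 3 and 10 counts in 0N, which again overlapped, and it was not tested. Summed over both genes, D27-like expression was 1.05 ± 0.249 CPM in 2N, against 1.41 ± 0.330 CPM in 0N (SD, n = 3 each).

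All 5 genes whose best match was the rice D27 protein fell below the minimum of 15 counts, and the 2 genes kept both matched the Arabidopsis protein best. Of the 6 D27-like genes below the minimum, TraesCS7A02G418900 had 5 counts in 2N and 3 in 0N. TraesCS7B02G319100 had no count in 2N and 3 in 0N. TraesCS1B02G092300, TraesCS7D02G411500 and TraesCSU02G097100 had a single count each, and TraesCS7D02G314600 had none. At these counts a difference between the groups was not detectable.

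The next enzyme, CCD7, was represented by 1 gene on each of chromosomes 2A, 2B and 2D, all with the rice CCD7 protein as best match. TraesCS2B02G433800 was the most abundant by TPM, with 0.721, 1.57 and 1.73 CPM in 2N, against 1.69, 1.26 and 1.80 CPM in 0N. The lowest value belonged to the first 2N library, and the groups overlapped (log2 fold change -0.23 ± 0.31, interval -0.90 to 0.44, adjusted p = 0.697).

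TraesCS2A02G414600 had 0.360, 1.45 and 1.15 CPM in 2N, against 1.49, 0.828 and 1.31 CPM in 0N. TraesCS2D02G411900 had 1.38, 0.698 and 1.42 CPM in 2N, against 0.923, 0.684 and 0.885 CPM in 0N. The 2A copy thus shared the low first 2N library with the 2B copy, while the 2D copy was low in the second. Neither passed the test, with log2 fold changes of -0.28 ± 0.41 (interval -1.16 to 0.60, adjusted p = 0.717) for the 2A copy and 0.47 ± 0.34 (interval -0.25 to 1.19, adjusted p = 0.414) for the 2D copy. Without the first 2N library the signs of the 2A and 2B copies turned, to 0.11 and 0.0673.

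Over the 6 libraries, log2 CPM of the 2A and 2B copies correlated with r = 0.95, whereas the 2D copy had r = -0.47 with the 2A copy and -0.33 with the 2B copy. The share of the 2D copy in the summed CCD7 TPM was 55.4%, 18.6% and 32.6% in the 2N libraries, against 22.4%, 24.2% and 21.9% in the 0N libraries. All 3 copies had counts that were not whole numbers in some libraries. A division of reads between similar genes can give such values, which was not tested, and the split between copies is therefore uncertain. The sum over the copies does not depend on a division among them, and it was 3.49 ± 0.937 CPM in 2N, against 3.62 ± 0.738 CPM in 0N (SD, n = 3 each).

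CCD8, which forms carlactone, was the most abundant of the 3 synthesis enzymes. Of its 5 genes, 4 matched rice CCD8 homolog B (D10) best and TraesCSU02G085100 matched homolog A. Most CCD8-like expression came from 1 gene each on 3B and 3D and a lower copy on 3A, and none of these 3 passed the test. TraesCS3B02G308000 had 6.25, 10.9 and 7.26 CPM in 2N, against 7.61, 8.08 and 10.2 CPM in 0N. The second 2N library was the highest of all 6 and the groups overlapped (log2 fold change -0.08 ± 0.20, interval -0.53 to 0.36, adjusted p = 0.845).

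TraesCS3D02G273500 had 4.57, 8.37 and 5.56 CPM in 2N, against 5.65, 5.73 and 6.11 CPM in 0N. The second 2N library again stood above the rest, and the log2 fold change of 0.08 ± 0.19 (interval -0.34 to 0.50, adjusted p = 0.833) turned to -0.0096 with library totals. TraesCS3A02G274300 had 1.56, 2.56 and 1.87 CPM in 2N, against 1.19, 3.13 and 2.64 CPM in 0N. Its lowest and highest values were both in 0N, and its log2 fold change was -0.21 ± 0.32 (interval -0.92 to 0.49, adjusted p = 0.737).

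The 3B and 3D copies correlated over the 6 libraries with r = 0.90, and the 3A copy less closely with both (0.62 and 0.48). Together the 3 copies summed to 16.3 ± 4.95 CPM in 2N, against 16.8 ± 2.27 CPM in 0N (SD, n = 3 each), so that the mean differed by less than the spread within either group. The intervals of the log2 fold changes were -0.92 to 0.49 for the 3A copy, -0.53 to 0.36 for the 3B copy and -0.34 to 0.50 for the 3D copy. Changes within the interval of a copy remain possible for that copy.

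TraesCSU02G085100, the CCD8 homolog A-like gene on unplaced sequence, was lower in 2N. It had 22, 21 and 12 counts in 2N, against 38, 29 and 35 counts in 0N, or 1.32, 1.22 and 0.726 CPM in 2N and 2.26, 1.75 and 2.06 CPM in 0N. Every 2N library was below every 0N library, and the log2 fold change was -0.89 ± 0.27 (interval -1.47 to -0.30, adjusted p = 0.0391). The call did not hold without replicate 1 of 0N (adjusted p = 0.133), replicate 3 of 0N (0.0850) or replicate 3 of 2N (0.159), nor in DESeq2 (0.130). Over 14 alternative settings the adjusted p ran from 0.0225 to 0.159, and the sign was negative in each. All its counts were whole numbers.

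TraesCS3B02G088400, the remaining CCD8 homolog B-like gene, had 1, 2 and 1 counts in 2N, against 16, 8 and 14 counts in 0N. Its 0N values of 0.951, 0.482 and 0.822 CPM were all above the level of 3 counts, and its 2N values of 0.0601, 0.116 and 0.0605 CPM all below it. With the filter on low counts removed, edgeR gave a log2 fold change of -3.12 with an adjusted p of 0.000282, a fitted size that depends on the prior count. Its log2 CPM correlated with that of TraesCSU02G085100 with r = 0.90 over the 6 libraries, which fall into the 2 groups for both genes, and with r between -0.03 and 0.27 with the 3 abundant copies.

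The identifier of TraesCS3B02G088400 lies close to that of TraesCS3B02G088700, a gene with the name of the next enzyme in the pathway, the cytochrome P450 CYP711A1. The neighbouring genes were looked at after these values were seen. TraesCS3B02G088700 had 1.01, 0.648 and 0 CPM in 2N, against 4.36, 3.78 and 3.93 CPM in 0N, and fell by 2.84 ± 0.55 on the log2 scale (adjusted p = 0.0119). Its counts were not whole in 5 libraries, so its level may depend on how reads were divided. Between the 2 identifiers, TraesCS3B02G088600, named only as an AB hydrolase-1 domain protein, had 3.01 counts in 2N and 22.8 in 0N (adjusted p = 0.0158 with the filter removed). The flanking genes TraesCS3B02G088300 (log2 fold change -0.12, adjusted p = 0.623) and TraesCS3B02G088800 (-0.47, adjusted p = 0.191) did not pass the test. Every 2N library of TraesCS3B02G088800 was nevertheless below every 0N library. Further out, TraesCS3B02G088000 had 3 counts in 2N and 17 in 0N (adjusted p = 0.0746 with the filter removed). Near TraesCS1A02G119400, looked at in the same way, TraesCS1A02G119100 was lower (adjusted p = 0.0131) and TraesCS1A02G119600 higher (adjusted p = 0.0111). No coordinates were used, so the distance between these genes is not given.

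**Figure D2:**
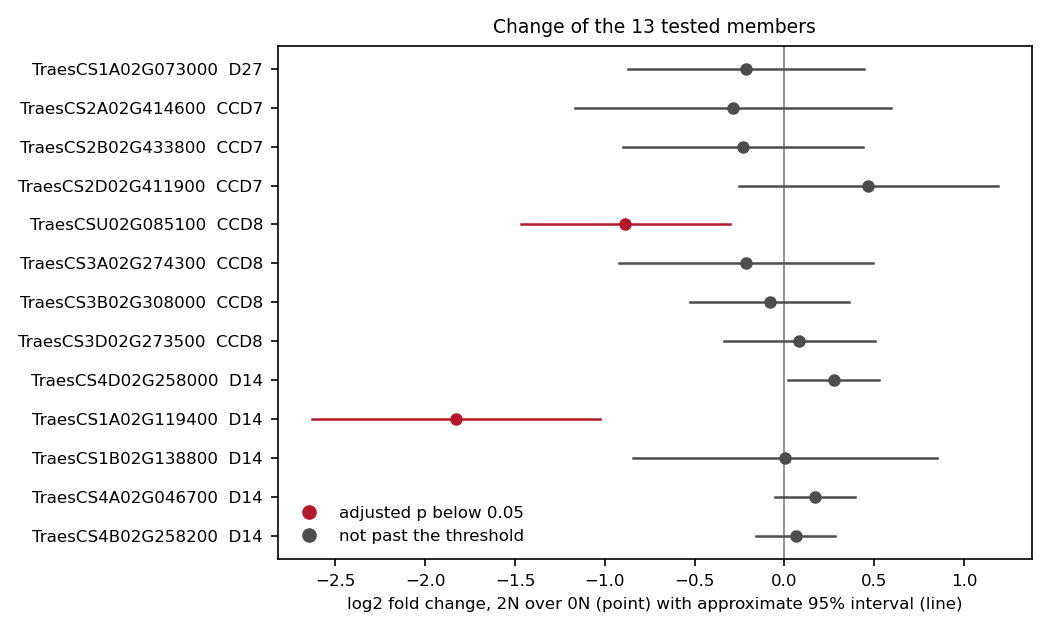
Log2 fold change (2N over 0N) of the 13 tested genes, ordered by pathway step, with the approximate 95% interval as a line; red marks an adjusted p below 0.05. TraesCSU02G085100 (-0.89) and TraesCS1A02G119400 (-1.83) lie below 0, the interval of TraesCS4D02G258000 (0.02 to 0.53) lies just above 0 without passing the adjusted threshold, and the other 10 intervals include 0.

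The D14-like receptor genes formed 2 sets of very different level. The set on chromosomes 4A, 4B and 4D gave nearly all D14-like transcript, with summed levels of 176 ± 11.3 TPM in 2N, against 171 ± 17.9 TPM in 0N (SD, n = 3 each). The set on chromosomes 1A, 1B and 1D summed to 1.37 ± 0.139 TPM in 2N, against 2.89 ± 0.670 TPM in 0N. No gene of the abundant set passed the test, while in the scarce set 1 of the 2 tested copies fell.

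TraesCS4B02G258200 was the most abundant of all 16 genes, with 126, 123 and 138 CPM in 2N, against 130, 133 and 108 CPM in 0N. The highest and the lowest library were the third of 2N and the third of 0N, the groups overlapped, and the log2 fold change was 0.06 ± 0.10 (interval -0.16 to 0.28, adjusted p = 0.748), with a negative sign (-0.0304) under library totals. TraesCS4A02G046700 had 57.1, 61.6 and 68.4 CPM in 2N, against 57.8, 59.5 and 49.0 CPM in 0N, and did not pass the test (0.17 ± 0.10, interval -0.05 to 0.39, adjusted p = 0.324).

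TraesCS4D02G258000, the only member whose best match was the Arabidopsis D14 protein, had 104, 94.8 and 112 CPM in 2N, against 82.6, 101 and 73.4 CPM in 0N. The second 0N library lay inside the 2N range and the other 0N libraries below it. The log2 fold change was 0.27 ± 0.12 (interval 0.02 to 0.53), with an unadjusted p of 0.0353 and an adjusted p of 0.143. Without the second 0N library the value was 0.39 and the gene passed the threshold (adjusted p = 0.0243), while over all 14 alternatives the adjusted p ran from 0.0243 to 0.459. The third 0N library was the lowest for all 3 copies, and their log2 CPM correlated over the 6 libraries with r of 0.81 to 0.89.

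TraesCS1A02G119400 had the smallest adjusted p of the 13 tested genes. It had 3, 6 and 9 counts in 2N, against 22, 20 and 23 counts in 0N, which is 0.180, 0.349 and 0.544 CPM in 2N and 1.31, 1.21 and 1.35 CPM in 0N. The 0N libraries lay within a narrow band and every 2N library was below them. The log2 fold change was -1.83 ± 0.38 (interval -2.63 to -1.03, adjusted p = 0.00379), and the gene was called lower in all 14 alternatives, with log2 fold changes of -2.25 to -1.28. It reached the minimum for testing through its 0N libraries alone, and most alternatives kept the same tested genes. Their agreement is therefore not separate support. With the filter removed, the log2 fold change was -1.82 (adjusted p = 0.000796). All its counts were whole numbers.

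Of the genes of the same name on 1B and 1D, the 1B copy did not pass the test and the 1D copy was too scarce for it. TraesCS1B02G138800 had 0.901, 0.564 and 0.590 CPM in 2N, against 0.892, 0.362 and 0.832 CPM in 0N, with a log2 fold change of 0.00 ± 0.40 (interval -0.84 to 0.85, adjusted p = 1.00). TraesCS1D02G120200 had 0, 0.192 and 0.136 CPM in 2N, against 0.238, 0.0603 and 0.284 CPM in 0N, around the level of 3 counts. Among the 3 copies, the 1A gene held 18.4% to 46.1% of the TPM in 2N and 57.0% to 76.9% in 0N, without overlap. Whether the response of the 1A copy differs from that of the 1B copy was not tested as such.

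Levels between genes can be set side by side in TPM, which accounts for length. TraesCS4B02G258200 stood first with 73.1 to 89.7 TPM over the 6 libraries. Next came TraesCS4D02G258000 (38.5 to 54.0 TPM) and TraesCS4A02G046700 (38.6 to 49.4 TPM), whose ranges overlapped with each other and not with the first. The abundant CCD8-like genes followed, at 3.00 to 5.33 TPM for the 3B copy and 2.21 to 4.27 TPM for the 3D copy, again overlapping.

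The other 11 genes reached at most 1.91 TPM in any library, and their ranges overlapped along the order. Within that low group, TraesCS3A02G274300 ranged from 0.64 to 1.58 TPM, the CCD7-like genes from 0.19 to 1.15 TPM, the D27-like TraesCS1A02G073000 from 0.65 to 1.22 TPM and TraesCSU02G085100 from 0.40 to 1.37 TPM. By mean TPM, the 3 abundant D14-like genes ranked at percentiles 92.6 to 95.8 of tested genes, the 3B and 3D CCD8-like genes at 49.8 and 41.5, and the CCD7-like genes at 6.57 to 13.2. The D14-like genes on 4A, 4B and 4D were thus among the more abundant transcripts of these roots. The CCD7-like genes and the tested D27-like gene (percentile 14.1) were among the scarcer genes that could be tested. Some D14-like and CCD8-like genes ranked in a similar range, at 17.3 for TraesCS1A02G119400, 11.4 for TraesCS1B02G138800 and 13.1 for TraesCSU02G085100.

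Summed over the 10 synthesis genes, levels were 17.3, 28.2 and 20.6 CPM in the 2N libraries, against 23.4, 23.0 and 27.4 CPM in the 0N libraries. The second 2N library was the highest of the 6 and the first 2N library the lowest, so the groups overlapped (means 22.0 ± 5.61 CPM in 2N, against 24.6 ± 2.47 CPM in 0N).

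**Figure D3:**
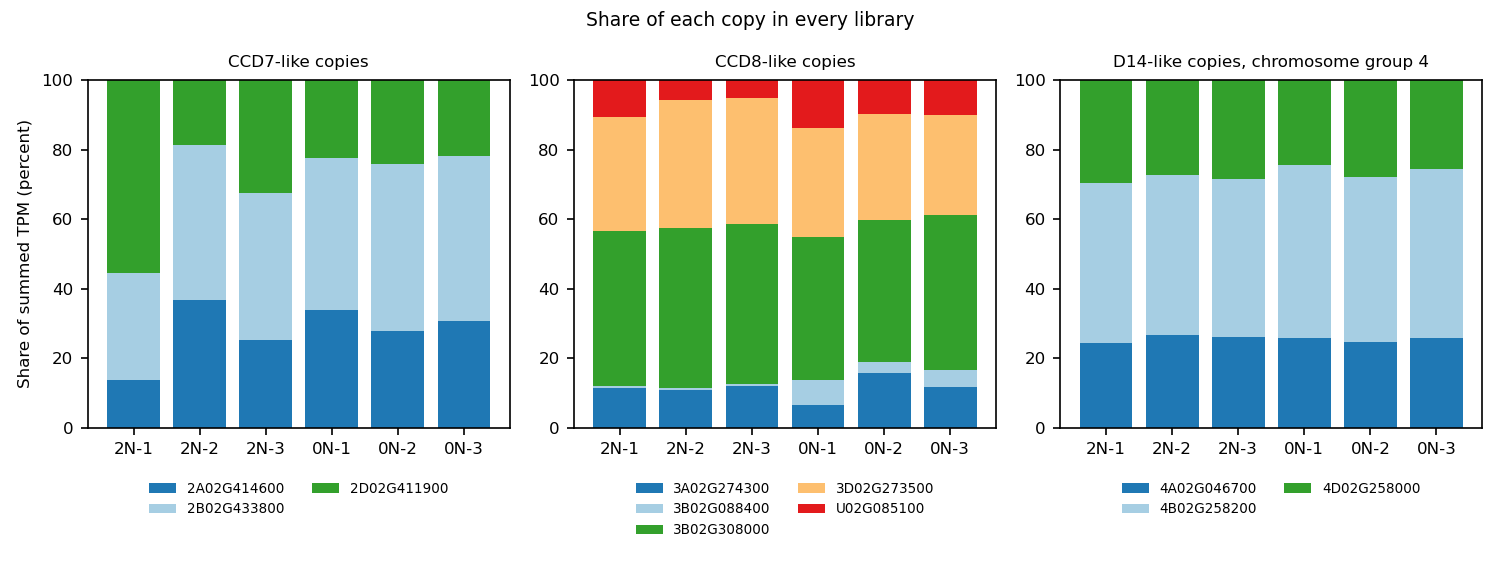
Share of each copy in the summed TPM of its set, in percent, for CCD7-like, CCD8-like and chromosome group 4 D14-like genes; each bar is 1 library, with the 3 2N libraries left of the 3 0N libraries. The share of TraesCS4B02G258200 was 45.4% to 46.1% in 2N and 47.3% to 49.7% in 0N, and that of TraesCS3B02G088400 was 0.531% to 0.690% in 2N and 3.26% to 7.11% in 0N.

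Within the abundant D14-like set, the share of the 4B copy was lower in 2N and those of the 4A and 4D copies overlapped. The 4A copy held 25.8% ± 1.23 of the TPM in 2N and 25.4% ± 0.581 in 0N (SD, n = 3 each). The 4B copy held 45.8% ± 0.374 in 2N and 48.6% ± 1.18 in 0N, without overlap, and the 4D copy 28.5% ± 1.05 in 2N and 26.0% ± 1.72 in 0N, with overlap. Counts of the 4B and 4D copies were not whole in any library, so the size of these shares depends on how reads were divided. Among the CCD8-like genes, the 3D copy held 32.8% to 36.8% in 2N and 28.7% to 31.2% in 0N, and TraesCSU02G085100 held 7.29% ± 2.97 in 2N and 11.3% ± 2.25 in 0N. Among the 3A, 3B (TraesCS3B02G308000) and 3D copies alone, the 3D share was 37.0% to 39.4% in 2N and 33.9% to 39.5% in 0N, with overlap. The separation of its share in the full set thus depends on the scarce copies in the sum.

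Other genes of the pathway were collected by protein name in 6 lists with 137 genes, of which 106 were tested. Of these, 14 were higher and 18 lower in 2N, beside 7.57% and 7.93% in the same directions among all tested genes. The median log2 fold change of the 106 genes was -0.05. The calls fell into separate steps: those in the supply of carotenoids, in their other uses and in the oxidation of carlactone were all lower, and those in perception and among phosphate starvation response proteins were all higher. Of the 32 calls, 17 held in every alternative that tested the gene, and 14 were lost without at least 1 of the libraries. In the 5 lists with calls, no gene passed in the opposite direction, either at an unadjusted p below 0.05 in edgeR or at the adjusted threshold in DESeq2 or limma on TPM.

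**Figure D4:**
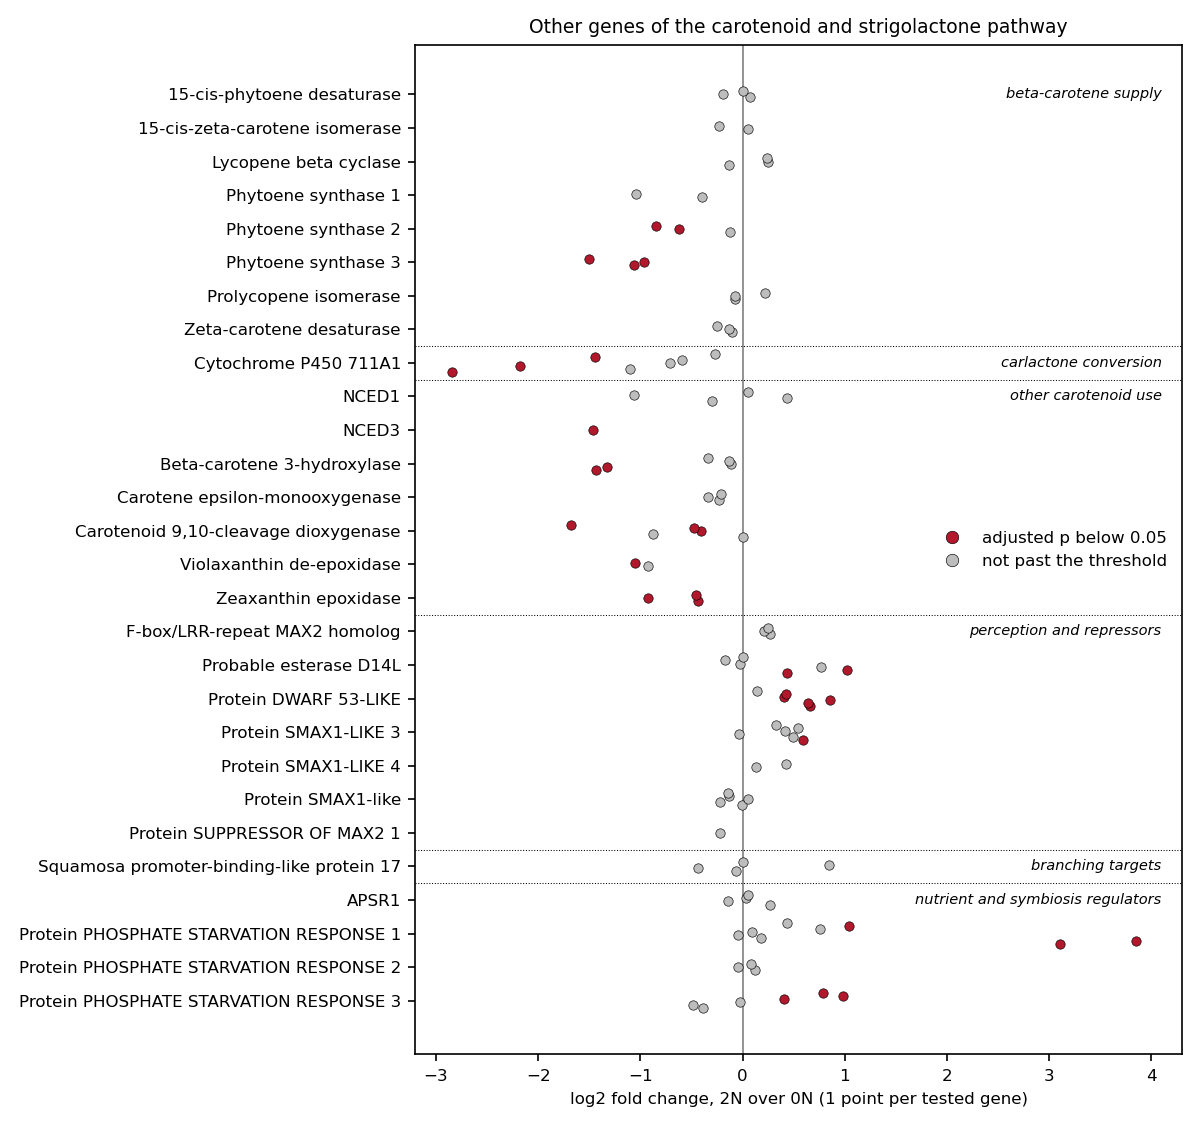
Log2 fold change (2N over 0N) of the 106 tested genes of the carotenoid and strigolactone pathway outside the 16 genes, 1 point per gene, in rows by protein name and in 6 blocks by list; red marks an adjusted p below 0.05. All 7 points of CYP711A1 and all 3 of phytoene synthase 3 lie below 0, and 2 points of PHOSPHATE STARVATION RESPONSE 1 lie above 3.

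Upstream of D27, 5 genes for phytoene synthase, which makes the first carotenoid, were lower in 2N, and no gene for a later enzyme passed the test. In the list for beta-carotene supply, 5 of 22 tested genes were lower, none was higher and the median log2 fold change was -0.13. The 5 comprised all 3 genes named phytoene synthase 3, known in maize as a form expressed in roots, and 2 of 3 named phytoene synthase 2. The remaining phytoene synthase 2 gene, TraesCS5A02G020900, did not pass (log2 fold change -0.12, adjusted p = 0.642). Neither of the 2 tested genes named phytoene synthase 1 passed (adjusted p = 0.0931 and 0.508). Phytoene synthase 3 summed to 4.53 ± 0.392 CPM in 2N, against 11.3 ± 0.760 CPM in 0N (SD, n = 3 each). TraesCS5D02G365100 fell by 1.51 ± 0.16 on the log2 scale (adjusted p = 1.89e-05), TraesCS5B02G017900 fell by 0.62 ± 0.12 (adjusted p = 0.0019) and TraesCS5B02G358800 fell by 0.97 ± 0.25 (adjusted p = 0.0152). None of the 14 tested genes for phytoene desaturase, zeta-carotene isomerase, zeta-carotene desaturase, prolycopene isomerase and lycopene beta cyclase passed. All 3 zeta-carotene desaturase genes nevertheless had every 2N library below every 0N library (median log2 fold change -0.13), beside 16.2% of all tested genes. In the other direction, 1 of 3 prolycopene isomerase genes had every 2N library above every 0N library, and 2 of 3 lycopene beta cyclase genes had a positive log2 fold change. The count of 5 was 3 without replicate 1 or 3 of 0N or replicate 1 of 2N.

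Downstream of CCD8, the genes named CYP711A1 (MAX1 in Arabidopsis) were lower in 2N where they passed the test. Of 11 such genes 7 were tested, and 3 fell, with none higher. All 7 had a negative log2 fold change (median -1.10), and in 6 of them every 2N library was below every 0N library, beside 16.2% of all tested genes. Of the 3 called genes, 2 (TraesCS3B02G088700 and TraesCS4D02G309900) reached the minimum for testing only with their 0N libraries, so their presence among the tested genes is tied to the difference. Among the 4 untested genes, TraesCS6B02G217300 had 7 counts in 2N and 2 in 0N, TraesCS4A02G412100 had 10 in 2N and 50 in 0N, TraesCS7D02G362800 had 15.3 in 2N and 37.8 in 0N, and TraesCS6D02G174100 had 1 in 2N and 2 in 0N. Counts of 7 of the 11 genes were not whole in some libraries, so levels of single copies may depend on how reads were divided. The sum over the 11 genes was 13.3, 11.2 and 9.37 CPM in 2N, against 34.2, 27.6 and 21.5 CPM in 0N, without overlap. Besides TraesCS3B02G088700, TraesCS4D02G309900 had 1.14, 0.640 and 0.242 CPM in 2N, against 4.35, 2.59 and 2.29 CPM in 0N (adjusted p = 0.00498). TraesCSU02G146300 had 2.00, 2.09 and 0.847 CPM in 2N, against 4.43, 4.92 and 4.05 CPM in 0N (adjusted p = 0.00151). The call of TraesCS3B02G088700 was lost without replicate 1 of 0N (adjusted p = 0.0513) or replicate 2 of 2N (0.0571).

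Carotenoid use outside strigolactone synthesis was lower at several enzymes. In that list 10 of 23 tested genes were lower, none was higher and the median log2 fold change was -0.43. They were all 3 zeaxanthin epoxidase genes, which act in the route to violaxanthin and abscisic acid, 3 of 5 genes for carotenoid 9,10-cleavage dioxygenase, 2 of 5 for beta-carotene 3-hydroxylase, 1 of 2 for violaxanthin de-epoxidase and the tested gene for NCED3. None of the 4 tested genes for NCED1, 2 of them with a positive log2 fold change, passed, nor did the 3 for carotene epsilon-monooxygenase. Of the 10, 3 reached the minimum for testing only with their 0N libraries, namely the NCED3-like TraesCS5B02G375900, the cleavage dioxygenase TraesCS5D02G002900 and the de-epoxidase TraesCS2D02G279300. Their calls held in 6, 12 and 4 of 13 alternatives, in that order. Of the genes not called, TraesCS2B02G297800, TraesCS5A02G002400, TraesCS6A02G271600 and TraesCS6B02G298800 also entered the test through 0N alone, and TraesCS6B02G298700 through 2N alone. The median of the list is thus tied in part to the filter. With a stricter filter (at least 1 CPM in 3 libraries) 8 genes were lower, none was higher and the median was -0.34. TraesCS2A02G396200 and TraesCS2B02G414500, both named beta-carotene 3-hydroxylase, fell by 1.43 ± 0.18 (adjusted p = 6.56e-05) and 1.32 ± 0.23 (adjusted p = 0.00118) on the log2 scale. TraesCS5D02G001900, a carotenoid 9,10-cleavage dioxygenase, fell by 0.48 ± 0.10 (adjusted p = 0.00369). The count of 10 was 6 without replicate 1 of 0N or replicate 1 or 3 of 2N. Chlorophyll-binding transcripts were also lower, at 54.0 to 92.6 TPM in 2N and 104 to 225 TPM in 0N, and their part in the lower carotenoid genes was not tested.

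On the side of perception, most genes for repressors of the DWARF 53 type were higher in 2N, while few or none of the related SMAX1-type genes passed. In the list of the F-box protein, repressors and related receptors, 8 of 29 tested genes were higher, none was lower and the median log2 fold change was 0.27. They were 5 of 6 genes named DWARF 53-LIKE, the repressor type that D14 removes, 2 of 6 named D14L, the rice relative of D14 required for mycorrhizal symbiosis, and 1 of 6 named SMAX1-LIKE 3. None of the 5 tested genes named SMAX1-like, 4 of them with a negative log2 fold change, passed, nor did the 2 named SMAX1-LIKE 4 or the 1 named SUPPRESSOR OF MAX2 1. Of the 6 genes named SMAX1-LIKE 3, 5 had a positive log2 fold change. Their median was 0.45, beside 0.53 for DWARF 53-LIKE, and a difference between the named groups was not tested. DWARF 53-LIKE genes summed to 171 ± 9.82 CPM in 2N, against 126 ± 12.3 CPM in 0N (SD, n = 3 each). TraesCS4B02G135800 rose by 0.64 ± 0.10 on the log2 scale (adjusted p = 0.000394) and TraesCS4D02G130600 by 0.86 ± 0.14 (adjusted p = 0.000629). Among the D14L genes, TraesCS1B02G470800 had 23.7, 20.4 and 28.5 CPM in 2N, against 12.8, 10.4 and 12.5 CPM in 0N, without overlap (adjusted p = 9.41e-05). Of the 6 D14L genes, 4 had a positive and 2 a negative log2 fold change. Every 2N library was above every 0N library in 3 of them and below in 1. The latter was TraesCS4B02G151300, which did not pass the test (log2 fold change -0.17, adjusted p = 0.224). The other negative value was that of TraesCS4A02G159200 (-0.03, adjusted p = 0.761).

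The 3 MAX2-like genes, the F-box partners of D14, summed to 95.3 ± 14.6 CPM in 2N, against 80.5 ± 5.90 CPM in 0N, and none passed the test. The count of 8 perception genes was 6 with library totals and 5 on log2 TPM in limma, in both cases with none lower. No gene among the 4 tested SPL factors, which act in shoot branching in rice, was called by edgeR, 1 had an unadjusted p below 0.05, and 1 had every 2N library above every 0N library.

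Phosphate starvation response (PHR) proteins, transcription factors whose rice forms act on phosphate and symbiosis genes, were in part higher. In the list of nutrient and symbiosis regulators 6 of 21 tested genes were higher and none was lower (median log2 fold change 0.13), with 3 of 8 named PHR1, 3 of 6 named PHR3 and none of 3 named PHR2. The 3 PHR3 genes that did not pass had negative log2 fold changes, of -0.39 (TraesCS6A02G108800), -0.48 (TraesCS6B02G137300) and -0.03 (TraesCS6D02G097000). TraesCS2A02G488200 had 65.3, 52.5 and 63.8 CPM in 2N, against 5.23, 8.92 and 6.86 CPM in 0N (adjusted p = 3.65e-07). TraesCS2D02G488500 had 61.6, 46.4 and 62.7 CPM in 2N, against 2.91, 5.85 and 3.11 CPM in 0N (adjusted p = 6.69e-05). Both were far above in every 2N library, and TraesCS7B02G315800, named PHR3, rose by 0.99 ± 0.12 on the log2 scale (adjusted p = 6.21e-05).

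The genes whose level followed the summed synthesis genes most closely over the 6 libraries were sought among 25481 genes with a name and a mean of at least 5 CPM. TraesCS5A02G025300, named plant cysteine oxidase 1, an oxygen-sensing enzyme in Arabidopsis, came first with r = 0.98 and had 111 ± 59.5 CPM in 2N, against 144 ± 23.8 CPM in 0N (SD, n = 3 each). TraesCS1A02G307800, an F-box protein, and TraesCS2B02G192300, a WEB1-like protein of chloroplast movement, followed with r of 0.98 each. None of the 3 differed between the groups in the test, and 44 genes had an r of at least 0.95. These 3 values are the highest of 25481, each over only 6 libraries. How many such values chance alone would give was not tested, so a link to strigolactone synthesis cannot be read from them.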

How the data were processed

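The authors deposited expected counts of reads per gene without normalization, and TPM values, for each of 6 libraries, per the file headers; 45.1% of the counts are not whole (tolerance 1e-06). HISAT and Bowtie2 are named in the submitters' processing notes, per the labels, without versions; for build, annotation, counting program and strand setting the answer is not given in the sources used here. Gene names are the deposited best UniProt matches. A further 12 per-sample columns were not used. None of the identifiers matched the 155467 genes of the reference table, so neither coordinates nor sequences appear, and chromosomes were read from the identifiers.

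Counts were rounded, filtered with filterByExpr (minimum count 10, minimum total 15) and tested for 2N against 0N across all 54313 genes left, with TMM scaling, edgeR's robust quasi-likelihood test (2-sided) and Benjamini-Hochberg adjustment (threshold 0.05). The approximate SE is the size of the change over the square root of its F statistic. CPM uses TMM-scaled library sizes; floors of 3 counts cover counting error only. Sums, shares and correlations are descriptions. The fit was tested on simulated data. Software comprised DESeq2 1.42.0, limma 3.58.1, edgeR 4.0.16, R 4.3.3 and pandas 2.3.3.

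The genes, the lists and the tests were chosen with earlier results of these data known. Named genes were all 16 genes, up to 3 called genes with the smallest p in each list, and the 3 genes most like the summed synthesis genes by r of log2(CPM + 0.5). The expression for the regulators also matched 4 tested genes named ALTERED PHOSPHATE STARVATION RESPONSE 1, and without them 102 list genes were tested with the same calls. Alternatives were other scalings, filters, DESeq2, limma-trend on TPM (pseudocounts 0.5 and 0.1), a replicate block and each library left out in turn.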

Additional observations from a re-analysis of the deposited data

How the results depend on the processing

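The number of genes called lower, 2 in the report, was 1 in DESeq2 and with a replicate block, 3 without a filter, and 1 to 2 with a library left out (1 without replicate 1 or 3 of 0N or replicate 3 of 2N); the number called higher was 0 to 1. Same-numbered libraries did not deviate together (r = -0.01, -0.11 and 0.03 for replicates 1, 2 and 3), so the replicate block rests on a shared number alone; with it TraesCSU02G085100 had an adjusted p of 0.0543, and 3454 genes were higher and 3845 lower. Leaving out a library gave 11 to 15 lower pathway genes (11 without replicate 1 of 0N), 3 to 5 lower for beta-carotene supply, 6 to 8 for other carotenoid use, and 2606 to 4232 higher genes over the whole table (2606 without replicate 1 of 0N, 2616 without replicate 3 of 2N). DESeq2 gave 3 lower for beta-carotene supply and 6 for other carotenoid use. Limma on TPM (pseudocounts 0.5 and 0.1) called 2493 and 2465 genes higher, with 5527 and 5415 lower, and 5 and 5 perception genes higher; the cause was not tested. Counts for single lists over the settings were added after the data were seen. Among the 13 tested strigolactone genes, signs turned only for genes not called. Under library totals and limma on TPM with pseudocounts 0.5 and 0.1, the log2 fold changes were -0.0926, -0.0503 and -0.0475 for TraesCS1B02G138800, -0.0096, -0.0874 and -0.1039 for TraesCS3D02G273500, and -0.0304, -0.0363 and -0.0365 for TraesCS4B02G258200. With a library left out, the ranges were -0.32 to 0.21 for TraesCS1B02G138800, -0.68 to 0.11 for TraesCS2A02G414600, -0.46 to 0.0673 for TraesCS2B02G433800, -0.54 to 0.0455 for TraesCS3A02G274300, -0.36 to 0.0765 for TraesCS3B02G308000, -0.20 to 0.26 for TraesCS3D02G273500 and -0.0394 to 0.10 for TraesCS4B02G258200. With a minimum of 60 summed counts 13 genes would be described, with none 22. Few counts per library kept TraesCS7A02G317900, TraesCS3B02G088400 and TraesCS1D02G120200 out of the test.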
